A study of Mus musculus with 6 samples.

Results

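The islet peptide hormone genes are the 8 genes Ins1, Ins2, Gcg, Sst, Ppy, Ghrl, Pyy and Iapp, taken by gene symbol from a deposited table of 54532 genes, where each of the 8 symbols matched 1 row. Their RNA was measured in mouse pancreatic buds that were removed at E12.5 (embryonic day) and kept in explant culture for 2 days, in medium with 10% fetal bovine serum and 0.1% DMSO. The 3 control cultures received DMSO alone, and the 3 treated cultures received 0.1 µM tetrabenazine (TBZ) throughout. TBZ inhibits VMAT2, the transporter that loads monoamines such as dopamine and serotonin into vesicles, and the study asked how this pathway acts on the developing pancreas. A bud holds mesenchyme, vessels and nerves beside the epithelium, and the labels give neither strain nor sex, nor whether the replicates came from separate litters, so that p-values measure only the spread between these samples.

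Each islet cell type is known by the peptide it secretes. Beta cells make insulin, which mice encode in the gene pair Ins1 and Ins2, together with the amylin peptide of Iapp. Alpha cells make glucagon from Gcg, delta cells somatostatin from Sst, PP cells pancreatic polypeptide from Ppy, and epsilon cells ghrelin from Ghrl. Peptide YY, from Pyy, is made by early endocrine cells of the embryonic pancreas and by endocrine cells of the gut. In the mouse embryo, glucagon-producing cells are among the first to differentiate, and most beta cells arise later from progenitors that switch on Neurog3.

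The mouse insulin genes are a near-identical pair, which bears on how their reads can be told apart. In the GENCODE M21 transcripts the coding sequence of Ins1 has 327 bases and that of Ins2 has 333. Of 327 aligned pairs 302 match (92.4% identity), with a longest identical run of 56 bases. The first 150 coding bases are shown for both genes in lower case, with the bases that differ between them in capitals (14 in this stretch):
Ins1: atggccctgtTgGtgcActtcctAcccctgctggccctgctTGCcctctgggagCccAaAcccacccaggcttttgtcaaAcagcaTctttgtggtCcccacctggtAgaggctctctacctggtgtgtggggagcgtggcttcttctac
Ins2: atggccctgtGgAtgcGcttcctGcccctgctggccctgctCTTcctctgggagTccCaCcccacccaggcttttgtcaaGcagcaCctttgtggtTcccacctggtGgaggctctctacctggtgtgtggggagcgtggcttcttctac

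Ppy and Pyy are a neighbouring pair of one peptide family on chromosome 11, with 5356 bases between them, and differ far more, at 57.4% identity over the aligned coding bases and no identical run longer than 7 bases. RefSeq promoter sequences (GRCm38.p6) were found for 7 of the 8 genes by symbol, and not for Ins2. The 250 bases before the start site are shown for 4 of them: Gcg and Pyy as the most abundant members, and Ppy and Iapp as members whose share or ratio lay apart between the groups. The motifs and the sequences to show were chosen after the data were seen. Capitals mark matches, on either strand, to TAAT (a core of homeodomain factors such as Pdx1), TATAAA or TATATA (forms of the TATA box), CATCTG (an E-box that Neurod1 can bind), TGCTGA (a core bound by MAF factors) and TGACGTCA (the cAMP response element), and neighbouring matches may overlap:
Gcg, chr2:62483654-62483903, minus strand: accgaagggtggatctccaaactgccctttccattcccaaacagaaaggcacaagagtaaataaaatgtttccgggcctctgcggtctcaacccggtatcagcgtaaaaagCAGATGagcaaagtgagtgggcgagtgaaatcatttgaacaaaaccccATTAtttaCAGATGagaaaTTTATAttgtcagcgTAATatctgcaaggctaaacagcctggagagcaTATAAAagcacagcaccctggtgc
Pyy, chr11:102107833-102108082, minus strand: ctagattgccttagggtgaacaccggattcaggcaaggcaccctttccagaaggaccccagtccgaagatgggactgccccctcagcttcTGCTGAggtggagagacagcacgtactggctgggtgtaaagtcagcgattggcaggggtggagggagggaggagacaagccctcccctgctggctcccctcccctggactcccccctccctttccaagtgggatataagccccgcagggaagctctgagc
Ppy, chr11:102101320-102101569, minus strand: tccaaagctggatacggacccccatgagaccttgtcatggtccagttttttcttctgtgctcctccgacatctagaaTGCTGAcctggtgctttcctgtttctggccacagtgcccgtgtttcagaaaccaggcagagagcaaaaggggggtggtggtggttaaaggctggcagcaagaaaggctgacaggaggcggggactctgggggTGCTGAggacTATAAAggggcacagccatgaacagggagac
Iapp, chr6:142298175-142298424, plus strand: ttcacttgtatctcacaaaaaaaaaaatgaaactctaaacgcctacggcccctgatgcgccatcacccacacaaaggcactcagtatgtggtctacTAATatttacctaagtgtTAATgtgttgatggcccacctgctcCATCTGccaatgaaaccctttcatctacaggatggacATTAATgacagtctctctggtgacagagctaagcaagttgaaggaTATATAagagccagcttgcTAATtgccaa

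These letters occur at different rates over all 32851 promoters of the table. TAAT was in 4 of the 7 hormone promoters (Ins1, Gcg, Sst and Iapp) and in 54.9% of all, and CATCTG in 3 (Ins1, Gcg and Iapp) and in 14.4% of all. TGCTGA was in 3 (Sst, Ppy and Pyy) and in 16.1% of all, TATAAA in 2 (Gcg and Ppy) and in 12.4%, TATATA in 1 (Iapp) and in 5.25%. TGACGTCA was in 1 (Sst), where it began 48 bases before the start site, and in 1.55% of all promoters. A match describes the letters of this window and is not evidence of binding.

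The 6 libraries held between 35825033 and 50620936 counted reads, and the 8 hormone genes together took 0.0304% to 0.0368% of them in control and 0.0271% to 0.0458% in TBZ libraries. The tissue label was met by its markers: Cpa1, the gene of a digestive carboxypeptidase that also marks tip progenitors, was at 984 to 1521 CPM (the count relative to the TMM-scaled library size), Nkx6-1 at 94.0 to 162 CPM, and the mesenchymal collagen gene Col1a1 at 1924 to 2458 CPM. Control replicate 3 stood apart in some foregut genes and not in others. There Pitx1 reached 47.8 CPM, against 1.29 to 7.24 CPM elsewhere. Sox2, a factor of stomach epithelium, reached 12.7 CPM there, against 0.420 to 2.35 CPM. Barx1, the most abundant of these markers, was at 107 CPM there, 109 CPM in control replicate 1 and 106 CPM in TBZ replicate 2. Cldn18 was higher in control replicate 1 and TBZ replicate 2 than in control replicate 3. The 14 foregut and stomach markers, of which 12 had a read, summed to 130, 111 and 187 CPM in control replicates 1 to 3. In TBZ replicates 1 to 3 these markers summed to 81.7, 129 and 86.1 CPM. The 5 pancreatic epithelium markers summed to 1238 to 1381 CPM in control libraries and to 1666 to 1854 CPM with TBZ. Most of that sum came from Cpa1. Groups were separate for 4 of the 5, against 15.5% of all tested genes. Cpa1 passed the test (log2 fold change 0.44, edgeR adjusted p = 0.0316), as did 0.187% of all tested genes. The part of either marker list in the hormone values was not tested, and the fold change and single share of each hormone gene, and the 7 ratios compared, were also computed without each library.

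Hormone transcripts were unequal in abundance, and Pyy and Gcg made up most of them. Levels between genes are compared as FPKM, which is per kilobase of the deposited gene length. Over all 6 libraries the order of mean FPKM was Pyy (197), Gcg (111), Ins2 (19.2), Ins1 (15.6), Iapp (13.8), Ghrl (5.61), Ppy (5.47) and Sst (4.96). Pyy and Gcg together gave 82.9 ± 1.34% of the summed FPKM of the 8 genes without TBZ and 82.4 ± 0.641% with it (n = 3 per group, SD). In the control mean Pyy ranked 188th and Gcg 390th of all genes by FPKM, while Ins2 ranked 3412th and Sst 8900th.

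In FPKM, with the deposited lengths, the libraries did not overlap at the steps after Pyy, Gcg and Iapp in that order. The lowest Pyy library (165 FPKM) lay above the highest Gcg library (159 FPKM), the lowest Gcg library (76.3) above the highest Ins2 library (25.1), and the lowest Iapp library (10.7) above the highest Ghrl library (7.26). The other neighbours had overlapping ranges. Within each library Ins2 still lay above Ins1 in 6 of 6, Ins1 above Iapp in 5 of 6, Ppy above Sst in 5 of 6 and Ghrl above Ppy in 3 of 6.

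**Figure D1:**
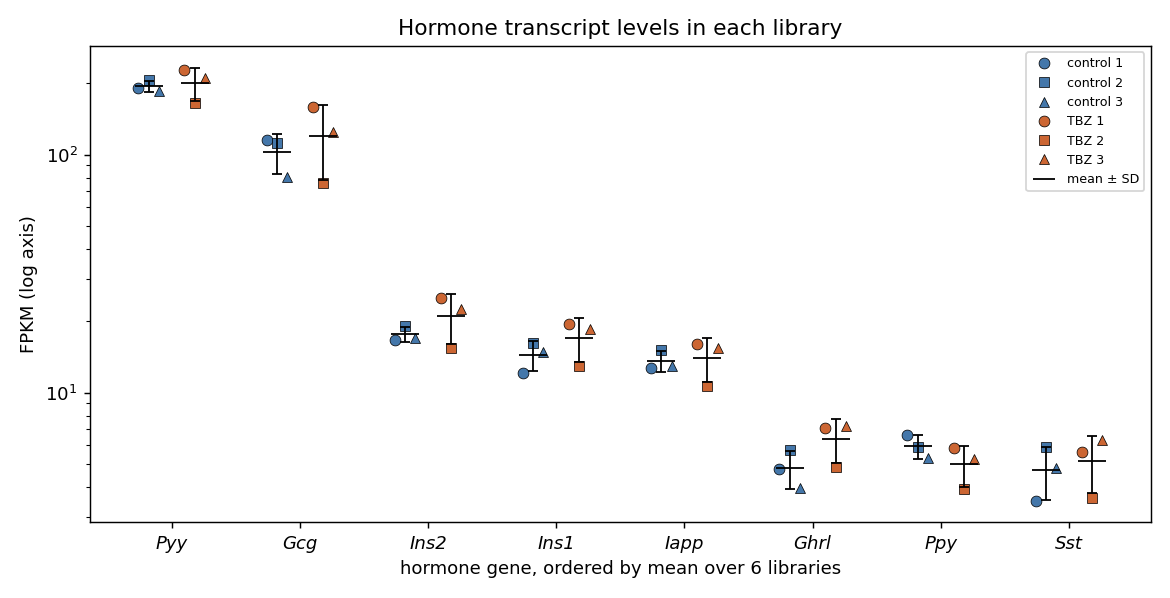
FPKM on a log axis for each hormone gene, with 1 point for each of 3 control (blue) and 3 TBZ (orange) libraries and bars for the mean ± SD of each group. Pyy and Gcg lie well above the other 6 genes, TBZ replicate 2 is the lowest TBZ library for all 8 genes, and the 2 groups overlap for each gene.

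The order depends on length in part. The deposited length of Ins2 is 1312 bases, 3.94 times its coding sequence of 333 bases, and its annotated span on chromosome 7 (142678656 to 142743381, mm10, minus strand) takes in transcripts that start far upstream of the compact gene. For Ppy the deposited length of 500 bases is 1.65 times the coding sequence of 303 bases. Per kilobase of coding sequence the mean counts were 17907 for Pyy, 13055 for Gcg, 3221 for Ins2, 2064 for Ins1, 2039 for Iapp, 725 for Ghrl, 434 for Sst and 390 for Ppy, so that Sst and Ppy changed places and the other 6 kept theirs.

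No hormone gene passed the test for a difference between TBZ and control. In edgeR's quasi-likelihood test with Benjamini-Hochberg adjustment over 18226 tested genes, 0 of 8 hormone genes had an adjusted p under 0.05, where 34 (0.187%) of all tested genes did. At an unadjusted p under 0.05 the count was 0 of 8, against 9.61% of all tested genes, and DESeq2 gave 0 at an adjusted p (1.43% of all genes with one) and 1, Ghrl, at an unadjusted p (4.72% of all genes with a DESeq2 p). The adjusted p-values of the authors' deposited table put 0 of 8 past the threshold, against 0.767% of its genes with one. Its log2 fold changes match those of DESeq2 for the 8 genes, so it is not a second test. Both called 222 genes, over 15491 genes with an adjusted p in DESeq2 and 28930 in the deposited table. The TBZ and control libraries overlapped for all 8, so that 0 of 8 had separate groups, against 15.5% of all tested genes. For 7 of 8 hormone genes the estimate lay above 0, and the median log2 fold change was 0.18, where 50.1% of all tested genes were positive and their median was 0.00. In bulk RNA, fewer cells of a type and less RNA per cell cannot be told apart.

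**Figure D2:**
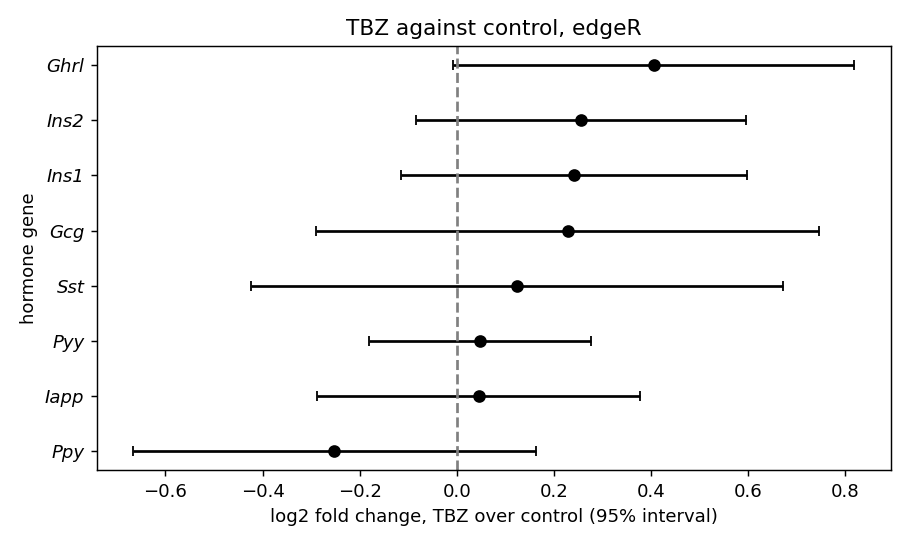
Log2 fold change of TBZ over control for each hormone gene from edgeR, as points with 95% intervals. All 8 intervals include 0, and the one of Ghrl, from -0.01 to 0.82, comes closest to leaving it out.

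Among the beta cell hormones, the difference between group means was larger for the insulin genes than for Iapp, and none of the 3 passed the test. Ins1, on chromosome 19 (52264323 to 52265456, mm10, plus strand), had 12.3, 16.4 and 15.1 CPM in control replicates 1 to 3. In TBZ replicates 1 to 3 it had 19.8, 13.2 and 18.9 CPM. TBZ replicates 1 and 3 lay above all controls and TBZ replicate 2 lay between control replicates 1 and 3, giving means of 14.6 ± 2.11 and 17.3 ± 3.61 CPM (SD, n = 3 each). Ins1 had a log2 fold change of 0.24 ± 0.16 (SE), with a 95% interval from -0.12 to 0.60 and an edgeR adjusted p of 0.669.

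Ins2, the insulin gene that mice share in structure with other mammals, stood at 21.9, 25.0 and 22.3 CPM in control and at 32.98, 20.3 and 29.5 CPM in TBZ libraries. TBZ replicates 1 and 3 were again the highest, and TBZ replicate 2 was the lowest of all 6. Its log2 fold change was 0.26 ± 0.15 (SE), a 1.19-fold difference with a 95% interval from 0.943-fold to 1.51-fold (edgeR adjusted p = 0.633). Without TBZ replicate 2 the log2 fold change of Ins2 was 0.44, and without TBZ replicate 1 it was 0.10, neither of them past the threshold (edgeR adjusted p = 0.136 and 0.918).

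Iapp, on chromosome 6 (142298423 to 142303961, mm10, plus strand), stood at 12.4, 14.8 and 12.6 CPM in control and at 15.6, 10.4 and 15.1 CPM in TBZ libraries. TBZ replicates held both the highest and the lowest values, and the group means were 13.3 ± 1.29 and 13.7 ± 2.85 CPM (SD, n = 3 each). This gave a log2 fold change of 0.05 ± 0.15 (SE), with a 95% interval from -0.29 to 0.38 (edgeR adjusted p = 0.948). Iapp lies within the span of Slco1a5 on the other strand, which had 0 to 4 counts per library.

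The insulin pair had close proportions in both groups, while the Iapp to Ins2 ratio was lower in each TBZ library than in each control library. Taken within a library, so that depth cancels, the FPKM of Ins2 over that of Ins1 was 1.38, 1.18 and 1.14 in control and 1.29, 1.19 and 1.21 in TBZ libraries. The mean log2 ratio was 0.30 in both groups, and the difference of -0.00014 was far within the spread between control libraries (SD 0.15; two-sided exact permutation p = 1, adjusted p = 1 over the 7 ratios compared). Since the pair shares 92.4% of its aligned coding bases, reads can be assigned to the wrong member and the single values of Ins1 and Ins2 are uncertain.

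Iapp over Ins2 was 0.762, 0.795 and 0.763 in control and 0.638, 0.692 and 0.690 in TBZ libraries, again as FPKM ratios. The lowest control library lay above the highest TBZ library. The difference of the mean log2 ratio was -0.20, a factor of 0.870, against an SD of 0.03 in control and 0.07 in TBZ (two-sided exact permutation p = 0.1, the smallest that 3 against 3 libraries can give; adjusted p = 0.35 over the 7 ratios), and it ranged from -0.22 to -0.16 when each library was left out.

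Gcg, the glucagon gene of alpha cells on chromosome 2 (62474530 to 62483650, mm10, minus strand), had the widest span between libraries of the 8 genes. It stood at 173, 167 and 120 CPM in control and at 238, 114 and 187 CPM in TBZ libraries, on 4658 to 9593 counts per library. TBZ replicate 1 was the highest and TBZ replicate 2 the lowest of the 6, a 2.08-fold span, and control replicate 3 lay close to TBZ replicate 2. The coefficient of variation was 18.8% in control and 34.5% in TBZ, and counting error alone would give 1.19%; the other 7 genes also varied by more than their counting error. Its log2 fold change was 0.23 ± 0.23 (SE), with a 95% interval from -0.29 to 0.75 (edgeR adjusted p = 0.791). It was -0.03 without TBZ replicate 1, 0.08 without control replicate 3 and 0.47 without TBZ replicate 2.

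Sst, the somatostatin gene of delta cells on chromosome 16 (23889573 to 23890958, mm10, minus strand), was read from 106 to 216 counts per library. It stood at 2.54, 4.26 and 3.47 CPM in control and at 4.06, 2.60 and 4.57 CPM in TBZ libraries. Each group held 1 low library, control replicate 1 and TBZ replicate 2, and the other 4 lay between 3.47 and 4.57 CPM. The log2 fold change of 0.12 ± 0.24 (SE; edgeR adjusted p = 0.908) had the widest interval of the 8 genes, from -0.42 to 0.67, and was -0.05 without control replicate 1 and -0.04 without TBZ replicate 3.

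Ghrl, the ghrelin gene of epsilon cells on chromosome 6 (113716119 to 113719880, mm10, minus strand), had the highest log2 fold change of the 8 genes. It stood at 5.14, 6.19 and 4.31 CPM in control and at 7.68, 5.25 and 7.88 CPM in TBZ libraries. TBZ replicates 1 and 3 lay above all controls, and TBZ replicate 2 lay between control replicates 1 and 2. Ghrl had a log2 fold change of 0.41 ± 0.18 (SE), a 1.33-fold difference with a 95% interval from 0.995-fold to 1.77-fold (edgeR adjusted p = 0.534, unadjusted p = 0.0533). The authors' deposited table lists Ghrl at an unadjusted p of 0.0308 and an adjusted p of 0.487. The gene models Gm44033, with 4 to 15 counts per library, and Gm26982, with 117 to 184, overlap Ghrl on the other strand by 695 and 3 bases, and whether strand was used in counting is not given in the sources used here.

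Ppy, the pancreatic polypeptide gene on chromosome 11 (102099930 to 102101319, mm10, minus strand), was the member with a lower mean in TBZ. It stood at 3.33, 2.96 and 2.66 CPM in control and at 2.92, 1.96 and 2.63 CPM in TBZ libraries. TBZ replicate 2 was the lowest, and TBZ replicate 1 lay within the control range. For Ppy the log2 fold change was -0.25 ± 0.18 (SE), with a 95% interval from -0.67 to 0.16 (edgeR adjusted p = 0.709), on 80 to 156 counts per library, where counting error alone gives a coefficient of variation of 9.20%. Without TBZ replicate 2 it was -0.10.

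Pyy, next to Ppy on chromosome 11 (102106676 to 102107832, mm10, minus strand), was the most even member. It stood at 120, 130 and 118 CPM in control and at 143, 104 and 133 CPM in TBZ libraries, a 1.37-fold span over the 6. TBZ replicate 1 was the highest and TBZ replicate 2 the lowest. The group means were 123 ± 6.65 and 127 ± 20.1 CPM (SD, n = 3 each), with a log2 fold change of 0.05 ± 0.10 (SE) and a 95% interval from -0.18 to 0.28 (edgeR adjusted p = 0.919). This was the narrowest interval of the 8 genes, and in fold terms it ran from 0.882 to 1.21.

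Some libraries were high or low for most of the 8 genes, and the high ones were both TBZ libraries. TBZ replicates 1 and 3 were among the highest 2 of the 6 libraries for 6 and 7 genes. Control replicates 1 to 3 were among the highest 2 for 1, 2 and 0 genes. Control replicate 1 was among the lowest 2 for 5 genes. TBZ replicate 2 was the lowest of the 6 libraries for 5 genes (Ins2, Gcg, Ppy, Pyy and Iapp) and among the lowest 2 for 7, with Ghrl as the exception. TBZ replicate 1 was the highest for 5 (Ins1, Ins2, Gcg, Pyy and Iapp) and TBZ replicate 3 for 2 (Sst and Ghrl). Control replicate 1 was the lowest for Ins1 and Sst and the highest for Ppy. After each gene was centred on its mean log2 CPM over the 6 libraries, Ins1 and Ins2 had a root mean square difference of 0.091, and the most distant pair was Ppy and Ghrl at 0.37. Genes with a small span, such as Pyy, come out close to many others on this measure. The points of these comparisons share their libraries, and the counts of libraries here are a description.

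**Figure D3:**
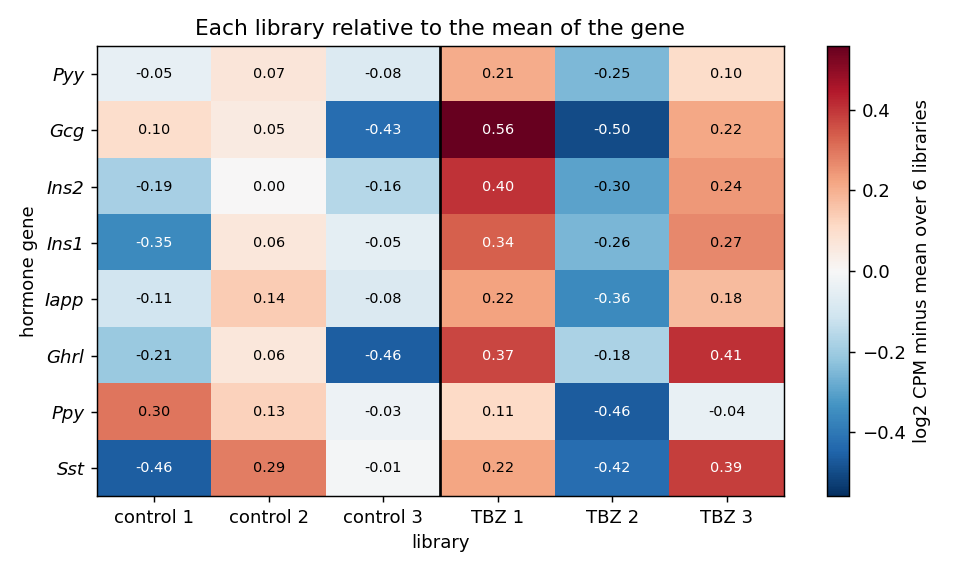
Log2 CPM of each hormone gene (rows) in each library (columns) minus the mean of that gene over 6 libraries, with the value printed in each cell and a line between control and TBZ. The column of TBZ replicate 2 is below 0 for all 8 genes, that of TBZ replicate 1 is above 0 for all 8, and Ppy is the row highest in control replicate 1.

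For each hormone gene but Pyy, the 3 genes with the most similar values over the 6 libraries were picked by that likeness, some of them known from endocrine cells and others not. Among 11478 protein-coding genes with a mean of at least 1 FPKM and 5 CPM, the nearest to Ins2 on the same measure was Pcsk2 (0.046), which encodes a prohormone convertase, followed by Ramp1 (0.074), a partner protein of calcitonin-family receptors, and Rab37 (0.081). The median over all candidates was 0.26. For Gcg the nearest were Irx1 (0.10), a transcription factor of alpha cells, Apoc1 (0.12) and Cltrn (0.14), against a median of 0.37. For Ghrl they were Cdkl1 (0.071), the granin gene Scg2 (0.085) and Rimbp2 (0.10), and for Ins1 Scgn (0.095), which encodes the calcium sensor secretagogin, Pdlim2 (0.10) and Rpl17 (0.10). The nearest genes to Iapp were Ramp1 (0.072), Resp18 (0.080) and Zfp182 (0.082), to Sst Rpl17 (0.15), Scgn (0.17) and Rab37 (0.18), and to Ppy Zfp882 (0.082), Tnni1 (0.11) and Map3k14 (0.11). Pyy spanned less than 0.5 on the log2 scale and was not compared in this way.

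The make-up of the hormone transcripts was close between the groups, with small differences for Ins2, Ghrl and Ppy. As a share of the summed FPKM of the 8 genes, Ins2 took 4.61%, 4.93% and 5.22% in control and 5.40%, 5.28% and 5.45% in TBZ libraries. Ghrl took 1.31%, 1.49% and 1.23% in control and 1.53%, 1.66% and 1.77% in TBZ libraries. Ppy took 1.84%, 1.53% and 1.63% in control and 1.26%, 1.34% and 1.28% in TBZ libraries. For these 3 of the 8 genes the groups did not overlap, including TBZ replicate 2, whose hormone levels were otherwise low. In CPM, and not as shares, 15.5% of all tested genes had separate groups. The shares add up to the whole in each library, most of it Pyy and Gcg, so they are not independent of each other.

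The mean share of Ins2 differed by 0.458 percentage points, that of Ghrl by 0.312 and that of Ppy by -0.375 (TBZ minus control). For each of the 3 the two-sided exact permutation p was 0.1, the smallest that 3 against 3 libraries can give, and the adjusted p was 0.267 over the 8 shares. The other shares overlapped between the groups. Gcg took 28.5 ± 3.62% in control and 30.3 ± 4.06% in TBZ, and Pyy took 54.4 ± 2.47% and 52.1 ± 3.87% (SD, n = 3 each; exact permutation p = 0.7 and 0.4). Both insulin genes together took 8.95 ± 0.934% and 9.75 ± 0.192% (SD, n = 3 each; exact permutation p = 0.3). With coding length in place of the deposited length they took 12.8% and 13.9%, and the groups still did not overlap for Ins2, Ghrl and Ppy. As shares of the raw counts of the 8 genes, with no length scaling, the groups were separate for Ppy and overlapped for Ins2 and Ghrl (exact permutation p = 0.1, 0.4 and 0.2).

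Set against the most abundant alpha cell transcript, Ppy had a lower ratio in each TBZ library than in each control library. The FPKM ratio of Ppy to Gcg was 0.0576, 0.0528 and 0.0661 in control and 0.0368, 0.0513 and 0.0420 in TBZ libraries, so that the groups did not overlap, with a difference of the mean log2 ratio of -0.45 (exact permutation p = 0.1, adjusted p = 0.35 over the 7 ratios). With 0.5 added to both FPKM values the groups overlapped, and the difference was -0.42 (exact permutation p = 0.2). Ghrl to Gcg overlapped, at 0.0412 to 0.0513 in control and 0.0447 to 0.0636 in TBZ libraries, and its log2 ratio differed by 0.22 (exact permutation p = 0.3). The other 3 ratios also overlapped, with log2 differences of -0.05 for Gcg to Ins2, -0.15 for Pyy to Gcg and -0.11 for Sst to Ins2 (exact permutation p from 0.6 to 0.8).

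**Figure D4:**
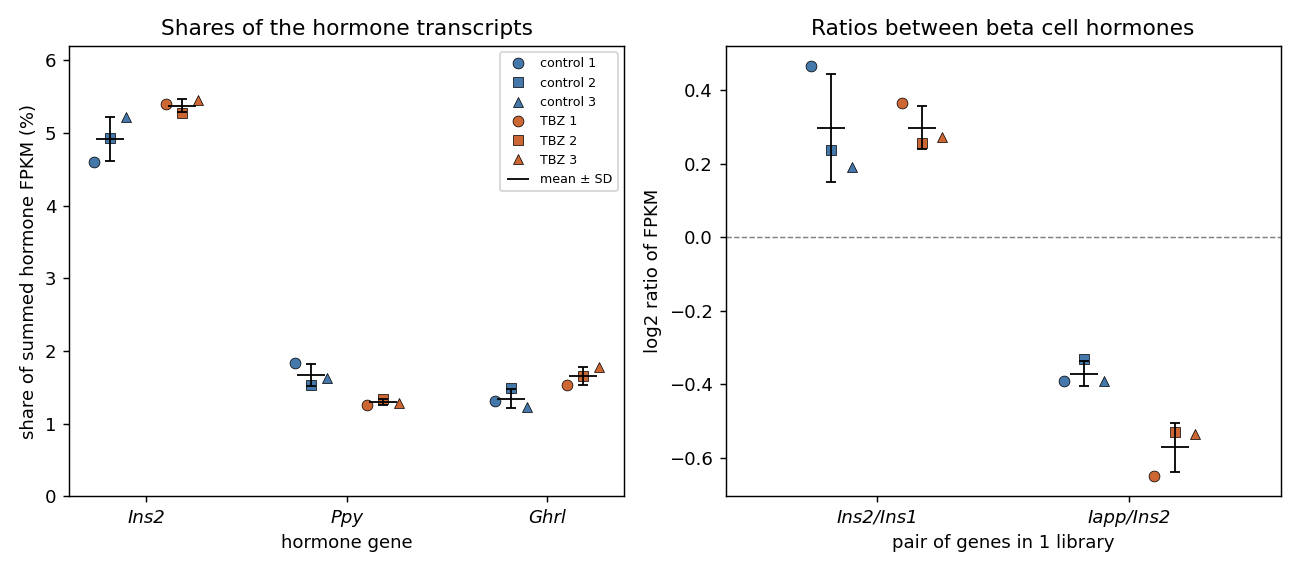
Left, share in percent of the summed hormone FPKM for Ins2, Ppy and Ghrl; right, log2 ratio of FPKM within a library for Ins2 over Ins1 and Iapp over Ins2. Points are the 3 control (blue) and 3 TBZ (orange) libraries with bars for mean ± SD; the groups are separate for all 3 shares and for Iapp over Ins2, and overlap for Ins2 over Ins1.

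Relative to genes that all endocrine cells use for secretion, the summed hormone transcripts did not differ between the groups beyond their spread. Pyy and Gcg gave 82.9% of the hormone sum in control and 82.4% in TBZ, so the ratio says little about the other members. Chgb and Chga had the highest mean FPKM of the secretory genes (105 and 38.5). The summed FPKM of the 8 hormone genes over that of 12 pan-endocrine secretory genes was 1.81, 1.80 and 1.70 in control and 2.00, 1.57 and 1.69 in TBZ libraries. TBZ replicate 1 was the highest and TBZ replicate 2 the lowest, on either side of the controls. For the summed hormone genes the mean log2 ratio differed by -0.02, against an SD of 0.18 in TBZ (two-sided exact permutation p = 0.9). Taken singly over the same sum, Ppy was the 1 of 8 hormone genes whose groups did not overlap. In CPM, 15.5% of all tested genes had separate groups. The log2 difference of Ppy was -0.38 (two-sided exact permutation p = 0.1, not adjusted). It rests on the same Ppy counts as its share and its ratio to Gcg. Of the 12 secretory genes, 10 lay above 0, 0 passed with edgeR or DESeq2, and the median log2 fold change was 0.15. Over all tested genes 50.1% lay above 0 and 0.187% passed with edgeR. With DESeq2 1.43% of all genes with an adjusted p passed. Chga, which encodes the granule protein chromogranin A, stood at 97.8, 101 and 87.5 CPM in control and at 128, 91.9 and 133 CPM in TBZ libraries, with TBZ replicate 2 inside the control range. Cplx2, which encodes the exocytosis protein complexin 2, had the smallest p of the list. Cplx2 was the list's 1 gene of 12 with separate groups, against 15.5% of all tested genes. It stood at 88.9, 88.9 and 79.1 CPM in control and at 96.7, 90.4 and 101 CPM in TBZ libraries, with TBZ replicate 2 above all controls (log2 fold change 0.17 ± 0.06 SE, edgeR adjusted p = 0.426). Syt7, which encodes the calcium sensor synaptotagmin 7, had a log2 fold change of 0.30 ± 0.13 (SE; edgeR adjusted p = 0.494), and its groups overlapped. Chgb, the most abundant of the list by FPKM, had a log2 fold change of 0.07 ± 0.10 (SE; edgeR adjusted p = 0.851).

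Genes for the processing, storage and breakdown of peptide hormones had small fold changes, and none passed with edgeR. This list holds prohormone-processing enzymes and their helpers, the zinc transporter Slc30a8, and Dpp4 and Ide, whose products degrade finished hormones. Of its 11 genes all were tested, 11 lay above 0, 0 had an edgeR adjusted p under 0.05, and the median log2 fold change was 0.16. Over all tested genes 50.1% lay above 0 and 0.187% had an edgeR adjusted p under 0.05. The prohormone convertase gene Pcsk1 averaged 18.5 ± 1.61 CPM without TBZ and 23.7 ± 4.32 CPM with it (n = 3 per group, SD; log2 fold change 0.36 ± 0.13 SE, edgeR adjusted p = 0.404). Ero1lb, whose product helps to form the disulfide bonds of proinsulin, averaged 32.1 ± 3.42 and 41.3 ± 2.81 CPM (log2 fold change 0.36 ± 0.08 SE, edgeR adjusted p = 0.169). It was the list's 1 gene of 11 with separate groups, against 15.5% of all tested genes. It was also the 1 member past the threshold with DESeq2 (adjusted p = 0.0101), against 1.43% of all genes with a DESeq2 adjusted p. Slc30a8, the zinc transporter of insulin granules, had a log2 fold change of 0.56 ± 0.32 (SE; edgeR adjusted p = 0.621). Among the most abundant members, Cpe, the carboxypeptidase that trims prohormones, and Pcsk1n, the convertase inhibitor proSAAS, had log2 fold changes of 0.12 and 0.18. Mboat4, the enzyme that acylates ghrelin, averaged 1.54 ± 0.319 CPM without TBZ and 1.57 ± 0.114 CPM with it (n = 3 per group, SD).

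None of the transcription factors of endocrine cells passed with edgeR. Of 24 tested factors 21 lay above 0, against 50.1% of all tested genes, and the median log2 fold change was 0.24. With edgeR 0 had an adjusted p under 0.05, against 0.187% of all tested genes. DESeq2 put 5 past the threshold, all higher: Neurog3, Pdx1, Nkx6-1, Nkx2-2 and Myt1. Of all genes with a DESeq2 adjusted p, 1.43% were past it. Groups were separate for 7 of the 24 factors, 6 of them higher in TBZ, against 15.5% of all tested genes. Neurog3, the switch into the endocrine lineage, stood at 94.7, 81.9 and 77.7 CPM in control libraries. In TBZ libraries it stood at 118, 101 and 124 CPM. TBZ replicate 2 lay above all controls for Neurog3 but was its lowest TBZ library, as it was for each hormone gene. The same held for Nkx6-1, a factor of beta cells and their progenitors, at 94.0 to 119 CPM without TBZ and 140 to 162 CPM with it, and for Nkx2-2, at 43.4 to 51.7 and 57.3 to 72.0 CPM. The 5 pancreatic epithelium markers, which include Pdx1 and Nkx6-1, summed to 1238 to 1381 CPM without TBZ and 1666 to 1854 CPM with it. Most of that sum was Cpa1, which averaged 1061 CPM without TBZ and 1445 CPM with it. Sums of 6 general epithelium markers, such as Epcam and Krt8, overlapped, at 1707 to 1875 CPM without TBZ and 1858 to 2053 CPM with it. The part of either list in these values was not tested. The edgeR adjusted p-values were 0.124 for Neurog3, 0.0943 for Nkx6-1 and 0.124 for Nkx2-2.

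Fold changes of receptors for these hormones lay on both sides of 0. Of 21 receptor and partner genes 20 had a read and 14 were tested. Of these 7 were above 0 and 7 below, and the median log2 fold change was -0.02. With edgeR 0 passed, against 0.187% of all tested genes. DESeq2 also put 0 past the threshold, against 1.43% of all genes with a DESeq2 adjusted p. Insr, the insulin receptor gene, and Igf1r, which encodes the related receptor for insulin-like growth factors, were the members with the highest mean FPKM. Insr averaged 101 ± 15.5 CPM without TBZ and 107 ± 7.77 CPM with it, and Igf1r 165 ± 29.9 and 194 ± 7.37 CPM (n = 3 per group, SD; edgeR adjusted p = 0.823 and 0.551). Of the somatostatin receptor genes, Sstr1 had a log2 fold change of -0.83 ± 0.40 (SE; edgeR adjusted p = 0.554) at a mean under 1 CPM in both groups, and Sstr2 one of -0.28 ± 0.20 (SE; edgeR adjusted p = 0.697). Ghsr, the ghrelin receptor gene, had 0 counts in all 6 libraries, which allows up to 3 counts per library, or 0.0592 to 0.0841 CPM, for counting error only.

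**Figure D5:**
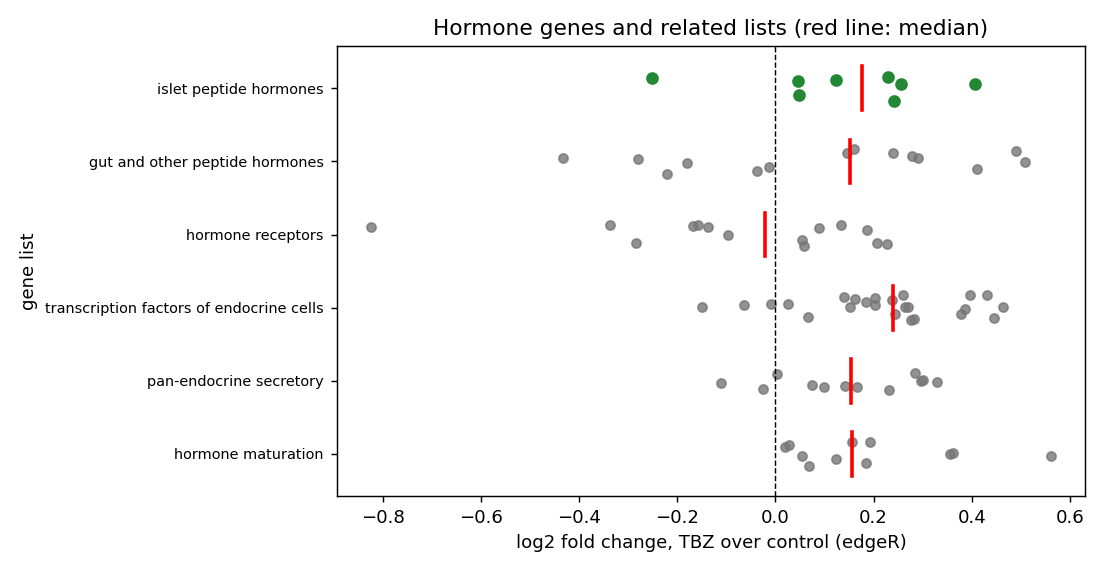
Log2 fold change of TBZ over control for each tested gene (points) of the hormone genes and of 5 related lists, with a red line at the median of each list. The medians are 0.18 for the hormones, 0.15 for gut and other peptide hormones, -0.02 for receptors, 0.24 for transcription factors, 0.15 for secretory genes and 0.16 for maturation genes.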

How the data were processed

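Poly-A RNA of 6 cultured bud samples was sequenced as paired ends. The tools named in the submitters' processing notes are STAR and HTSeq, with the build mm10, and no versions. The deposited counts are whole numbers without normalization, per the file headers, and the FPKM values were made by the authors from the deposited gene length and an effective library total (0.991 to 1.02 of the summed counts). The signal columns were deposited as group means of size-factor-scaled counts, as recomputation showed. The authors' log2 fold changes and p-value columns name no tool. Gene length was deposited in bases.

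Counts were tested with the quasi-likelihood method of edgeR after TMM scaling and filterByExpr, which kept 18226 of 31250 genes with a read. Adjustment (Benjamini-Hochberg) ran over all of these, at a threshold of 0.05. SE is the size of the log2 fold change divided by the root of F, and intervals are at 95%. Shares and ratios were compared between groups by exact two-sided permutation. Gene tests were tested on simulated data. No 2 libraries agreed within sampling noise (chi-square per degree of freedom of at least 6.90).

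Members, lists and tests were chosen with earlier results of these data known. All 8 members are named; lists give their called genes, the 3 with the smallest p and the 2 with the highest mean FPKM, and other names were chosen after their values were seen. Other settings tried were RLE scaling, DESeq2, no filter, the replicate block, limma on log2(FPKM + 0.5), with 0.1 and 1 as other pseudocounts, and leaving out each library. Coding length was added after the data were seen, since the planned protein table was not used here. The tools were Biopython 1.88, DESeq2 1.42.0, limma 3.58.1 and edgeR 4.0.16 in R 4.3.3.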

Additional observations from a re-analysis of the deposited data

How the results depend on the processing

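No hormone gene passed under any of the 13 alternatives to the gene test, and DESeq2, RLE scaling, no filter, the replicate block and limma on FPKM kept the direction of all 8. With each library left out in turn, the log2 fold changes ranged from -0.027 to 0.47 for Gcg, -0.054 to 0.33 for Sst, -0.051 to 0.17 for Pyy and -0.062 to 0.21 for Iapp, turning direction, and from 0.13 to 0.41 for Ins1, 0.10 to 0.44 for Ins2, -0.38 to -0.10 for Ppy and 0.29 to 0.57 for Ghrl. Shares turned for Ins1 (-0.0016 to 0.616 points), Gcg (-0.240 to 3.82) and Sst (-0.177 to 0.102), the last also with coding length (-0.0107). Log2 ratios turned for Ins2 to Ins1 (-0.054 to 0.083, and 0.0015 with FPKM + 0.5), Gcg to Ins2 (-0.19 to 0.085) and Sst to Ins2 (-0.27 to 0.0057), as did hormones over secretory genes (-0.12 to 0.058) and the receptor median (-0.12 to 0.071). The cause was not tested. DESeq2 raised the genes called higher from 0 to 1 for maturation and from 0 to 5 for transcription factors, where leaving out a library gave 0 to 1. Over all genes the count of 34 was 222 with DESeq2, 445 with no filter, 13, 14 and 4 with limma at pseudocounts of 0.5, 0.1 and 1, 5 with the replicate block and 5 to 36 with a library left out (5 without TBZ replicate 3, 11 without TBZ replicate 1, 13 without control replicate 2). Same-numbered libraries did not deviate together (r of -0.0079, -0.18 and -0.079), where other pairs had r from -0.11 to 0.17. With 3 libraries per group this cannot tell whether same-numbered cultures shared a litter or batch. With the replicate block the log2 fold change was 0.23 for both insulin genes, 0.19 for Gcg, 0.12 for Sst and -0.26 for Ppy. It was 0.40 for Ghrl, 0.037 for Pyy and 0.031 for Iapp. Depth limits Ppy and Sst most, at 80 to 216 counts per library.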

Other observations

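A list of 25 peptide hormone and neuropeptide genes outside the 8 members reached a mean of at most 7.08 FPKM in these buds. Of the 25 genes 24 were in the table and 14 were tested. Of the tested genes 8 lay above 0, against 50.1% of all tested genes, and the median log2 fold change was 0.15. With edgeR 0 passed, against 0.187% of all tested genes. DESeq2 also put 0 past the threshold, against 1.43% of all genes with a DESeq2 adjusted p. Penk, the enkephalin precursor gene, and Cck, the cholecystokinin gene of duodenal endocrine cells, had the highest mean FPKM (7.08 and 6.82). Both lay above the mean FPKM of Ghrl (5.61), Ppy (5.47) and Sst (4.96). Cck stood at 9.33, 6.82 and 7.95 CPM in control and at 10.5, 8.91 and 10.1 CPM in TBZ libraries (log2 fold change 0.29 ± 0.13 SE, edgeR adjusted p = 0.507), and the groups overlapped. Penk stood at 11.1 to 14.6 CPM in control and 9.17 to 13.5 CPM in TBZ libraries, and its highest value was in control replicate 3. The smallest p-values of the list included those of Nmb (log2 fold change 0.49 ± 0.20 SE, edgeR adjusted p = 0.470) and Vip (0.41 ± 0.18 SE, adjusted p = 0.506), which encode neuromedin B and vasoactive intestinal peptide. Gast, the gastrin gene, was at 1.32 to 2.28 CPM in control and 1.94 to 2.55 CPM in TBZ libraries. Ucn3, the urocortin 3 gene of mature beta cells, did not pass the filter, with 0.104 ± 0.0550 CPM without TBZ and 0.128 ± 0.0188 CPM with it (n = 3 per group, SD).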
